A study of Arabidopsis thaliana with 18 samples.

Results

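The ER stress response that remained in Arabidopsis seedlings labelled as ire1a/ire1b double mutants was measured as transcript counts in 6 of the 18 libraries of the series: 3 of seedlings given 5 µg/mL tunicamycin (TM) for 6 h and 3 of seedlings given the solvent DMSO for the same time. These 6 libraries (named ire1a1b below) were taken by the genotype and treatment in their titles, and TM and DMSO libraries were set side by side by the replicate number in those titles, 1 to 3. The other 12 libraries were of WT and of ire1b, again 3 with DMSO and 3 with TM in each genotype. All were polyA RNA of whole seedlings that had grown for 7 days on vertical plates of 1/2 MS medium and were then moved to liquid 1/2 MS with sucrose for the treatment. All 6 groups of the study shared this move to liquid and the solvent, and the 3 TM groups had no dose or time other than these. The labels named no alleles, no ecotype and no transgene, and did not say how many seedlings were pooled in a library or whether replicates were separate cultures. Of 27416 genes, 20615 were tested in all comparisons.

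Tunicamycin stops the transfer of the first sugar of the N-glycan precursor to its lipid carrier, so that secretory proteins enter the endoplasmic reticulum (ER) without their glycans and misfold. The unfolded protein response (UPR) that follows has a pair of arms in plants. In one, the ER membrane proteins IRE1A and IRE1B cut the mRNA of the transcription factor bZIP60, which is then ligated to a form whose protein enters the nucleus; IRE1 also degrades other mRNAs at the ER. In the other, the membrane-anchored factors bZIP28 and bZIP17 travel to the Golgi and are cut free by the proteases S1P and S2P. The freed factors bind ER stress response elements (ERSE), in which they act with NF-Y subunits, and UPR elements in the promoters of genes for chaperones, folding enzymes, ER-associated degradation (ERAD) and vesicle traffic.

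IRE1A (AT2G17520, chr2:7617151-7621129, TAIR10.1) was at 22.4, 19.9 and 23.7 CPM (gene counts scaled to the depth of the library) in the 3 DMSO libraries labelled ire1a1b and at 24.7, 23.3 and 24.2 CPM in the 3 TM libraries, below all WT libraries (DMSO 90.08, 82.0 and 93.1 CPM; log2 difference in DMSO -2.01 ± 0.072 SE, adjusted p = 4.72e-10). IRE1B (AT5G24360, chr5:8316388-8319981) was at 36.6, 39.5 and 35.5 CPM with DMSO and 47.4, 39.3 and 37.4 CPM with TM, against 28.0, 30.7 and 36.7 CPM in WT with DMSO. The counts therefore matched the ire1a side of the label and did not show the ire1b side, and every result below is a result of the libraries labelled ire1a1b. Gene counts of these libraries totalled 16.89 to 24.85 M, within the 16.35 to 24.85 M of the series. Replicate 1 of WT and of ire1a1b stood apart from the rest on the second principal component, in DMSO and TM alike (31.0 to 47.5 against -27.1 to 3.51), and results that rest on those libraries are also given without them. In DMSO, 27 genes differed between ire1a1b and WT.

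TM changed 3064 genes in ire1a1b (14.9% of those tested, adjusted p under 0.05), of which 1705 rose (8.27%) and 1359 fell (6.59%); with the replicate block 4844 changed, 2569 higher and 2275 lower. Changes past 2-fold were shared about equally (480 rises and 507 falls), and past 4-fold there were 167 rises and 128 falls. The 3 TM and 3 DMSO libraries did not overlap in 3020 of the 3064 called genes, and in 5545 of all tested genes (26.9%). The median log2 fold change over all tested genes was -0.017. Of the 20 largest rises, 11 belonged to the lists of ER and secretory genes described below, and the largest was of BIP3. The largest gains in abundance were of the same kind, with 8 of the 10 largest CPM gains in ER lists. The lists were chosen with earlier results of these data known, so both counts describe the rankings and test nothing. The 20 largest falls held genes of the cell wall, root hairs and ion transport, and none of them was in an ER list.

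Among the sensors and regulators of the UPR, 5 of 16 tested genes rose with TM in ire1a1b and none fell, with a median log2 fold change of 0.28; in WT, where 6.13% of all tested genes rose and 5.77% fell, 9 rose. BZIP28 (AT3G10800), the membrane-anchored factor of the other arm, stood at 46.8, 60.4 and 60.2 CPM with DMSO and 149, 153 and 149 CPM with TM in ire1a1b. All 3 TM libraries lay more than 2-fold above all 3 DMSO libraries (log2 fold change 1.43 ± 0.12 SE, adjusted p = 4.42e-07). Its rise was larger than that in WT (log2 fold change 0.45 there; difference 0.98 ± 0.17 SE, adjusted p = 0.00183), and it was the 1 regulator that exceeded WT. Against ire1b, 5 regulators had a called response below and none above, so the rise of BZIP28 was not called above that of ire1b. BZIP17 (log2 fold change 0.15) and the protease genes S1P (0.12) and S2P (0.025) did not pass.

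BZIP60 (AT1G42990), the splicing target of IRE1, was at 73.9, 174 and 161 CPM with DMSO and 205, 252 and 235 CPM with TM in ire1a1b. The TM libraries were the higher 3, but DMSO replicate 1 lay far below the other DMSO libraries, and the change did not pass (log2 fold change 0.76 ± 0.28 SE, adjusted p = 0.0854; 0.82 and adjusted p = 0.0104 with the replicate block; 0.54 and adjusted p = 0.00113 when the 4 replicate 1 libraries of those genotypes were left out). Gene counts do not separate spliced from unspliced mRNA. NAC103 (AT5G64060), a NAC factor downstream of bZIP60, stayed at 1.53, 1.73 and 1.21 CPM with DMSO and 1.88, 2.19 and 1.75 CPM with TM, while the WT libraries reached 113, 142 and 158 CPM with TM. The ire1a1b TM libraries were all below 3 CPM, and the response differed from that of WT by -5.73 ± 0.23 SE, adjusted p = 1.17e-09, on the log2 scale, and from that of ire1b by -5.96 ± 0.24 SE, adjusted p = 1.28e-09. NF-YC2 (AT1G56170), a subunit of the NF-Y complex, had a log2 fold change of 0.34 in ire1a1b and 2.37 in WT (difference -2.03 ± 0.28 SE, adjusted p = 2.80e-04).

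The membrane-bound factors NAC089 and NAC062, which have been linked to ER stress cell death and survival, kept part of their rise. NAC089 (AT5G22290) was at 13.4, 15.1 and 17.7 CPM with DMSO and 36.0, 40.5 and 46.3 CPM with TM (log2 fold change 1.41 ± 0.15, against 3.09 in WT). NAC062 (AT3G49530) rose by 0.86 ± 0.15 against 1.94 in WT, and both differences to WT passed (adjusted p = 8.24e-05 and 0.00511). BI1 (AT5G47120), a brake on cell death in the ER membrane, rose by 2.44 ± 0.21 in ire1a1b and by 2.604 in WT (difference -0.16 ± 0.28 SE, adjusted p = 0.902). TIN1 (AT5G64510), a gene known for its induction by TM, was at 2.98, 5.67 and 4.62 CPM with DMSO and 84.5, 93.5 and 95.4 CPM with TM, which is a log2 fold change of 4.37 ± 0.26 against 6.89 in WT (difference -2.52 ± 0.35 SE, adjusted p = 2.69e-04).

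ER chaperones responded almost as a whole: 15 of 16 tested genes rose in ire1a1b and none fell, with a median log2 fold change of 2.75 against -0.017 over all tested genes. The summed level of the 16 genes was 2587, 3052 and 2670 CPM with DMSO and 21282, 20961 and 20593 CPM with TM; the WT means were 2469 and 29289 CPM. The 3 TM libraries of ire1a1b were close to each other and lay far above all DMSO libraries.

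BIP3 (AT1G09080, chr1:2929217-2931850), an ER HSP70 made almost only under stress, was at 1.12, 1.55 and 1.15 CPM with DMSO and 108, 95.7 and 102 CPM with TM in ire1a1b. The groups were far apart (log2 fold change 6.31 ± 0.34 SE, adjusted p = 2.68e-09), yet WT with TM reached 2733, 3042 and 2882 CPM. The log2 difference between the responses was -3.78 ± 0.46 SE, adjusted p = 7.96e-05. BIP2 (AT5G42020), the constitutive paralogue, was at 319, 426 and 359.5 CPM with DMSO and 4079.5, 4344 and 4243 CPM with TM (log2 fold change 3.52 ± 0.13, 4.08 in WT). Its difference to WT (-0.56 ± 0.16, adjusted p = 0.0576) passed with the replicate block (-0.55, adjusted p = 0.00347). It also passed without WT DMSO replicate 2 (-0.67), WT TM replicate 1 (-0.61) or ire1a1b DMSO replicate 1 (-0.65). BIP1 and BIP2 are near-identical copies, so reads could be split between them by the authors' counting. The lectin chaperone gene CNX1 (AT5G61790) was at 354, 439 and 371 CPM with DMSO and 3707, 3548 and 3393 CPM with TM, again with no overlap between the groups (log2 fold change 3.19 ± 0.10, 3.61 in WT). Its difference to WT (-0.42 ± 0.13, adjusted p = 0.0724) passed with the replicate block (-0.42, adjusted p = 0.013). It also passed without WT DMSO replicate 2 (-0.49) or ire1a1b DMSO replicate 1 (-0.49).

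Among the others, the J-domain cochaperones ERDJ3A (4.44 ± 0.23), ERDJ3B (3.24 ± 0.10) and P58IPK (2.69 ± 0.092) rose, as did SDF2 (2.58 ± 0.09), which works with ERDJ3B and BiP. The calreticulin CRT1B (2.94 ± 0.094) rose, and CRT1A (2.66 ± 0.075) rose further than in WT (2.19; difference 0.46 ± 0.10 SE, adjusted p = 0.00987). In ire1b CRT1A rose by 2.48. Against ire1b, 5 chaperone genes had a called response below and none above. Calreticulin CRT3, which is known for receptor kinase folding, was the 1 chaperone gene that did not pass (-0.23; -0.23 and adjusted p = 0.0135 with the replicate block). Smaller responses than in WT were called for 6 of the 16 (2.43% of all tested genes were called below WT): BIP3, BIP1, HSP70-17 (-0.67), HSP90.7 (-0.92), AT5G07340 (-0.83), a calnexin, and ERDJ2B (-0.84). This count was 10 without WT DMSO replicate 2, with the replicate block or without the replicate 1 libraries, and BIP1 (difference -0.61 ± 0.15, adjusted p = 0.0209) left it without WT TM replicate 2 (-0.59, adjusted p = 0.0542), WT TM replicate 3 (adjusted p = 0.0557) or ire1a1b DMSO replicate 2 (adjusted p = 0.0552).

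**Figure D1:**
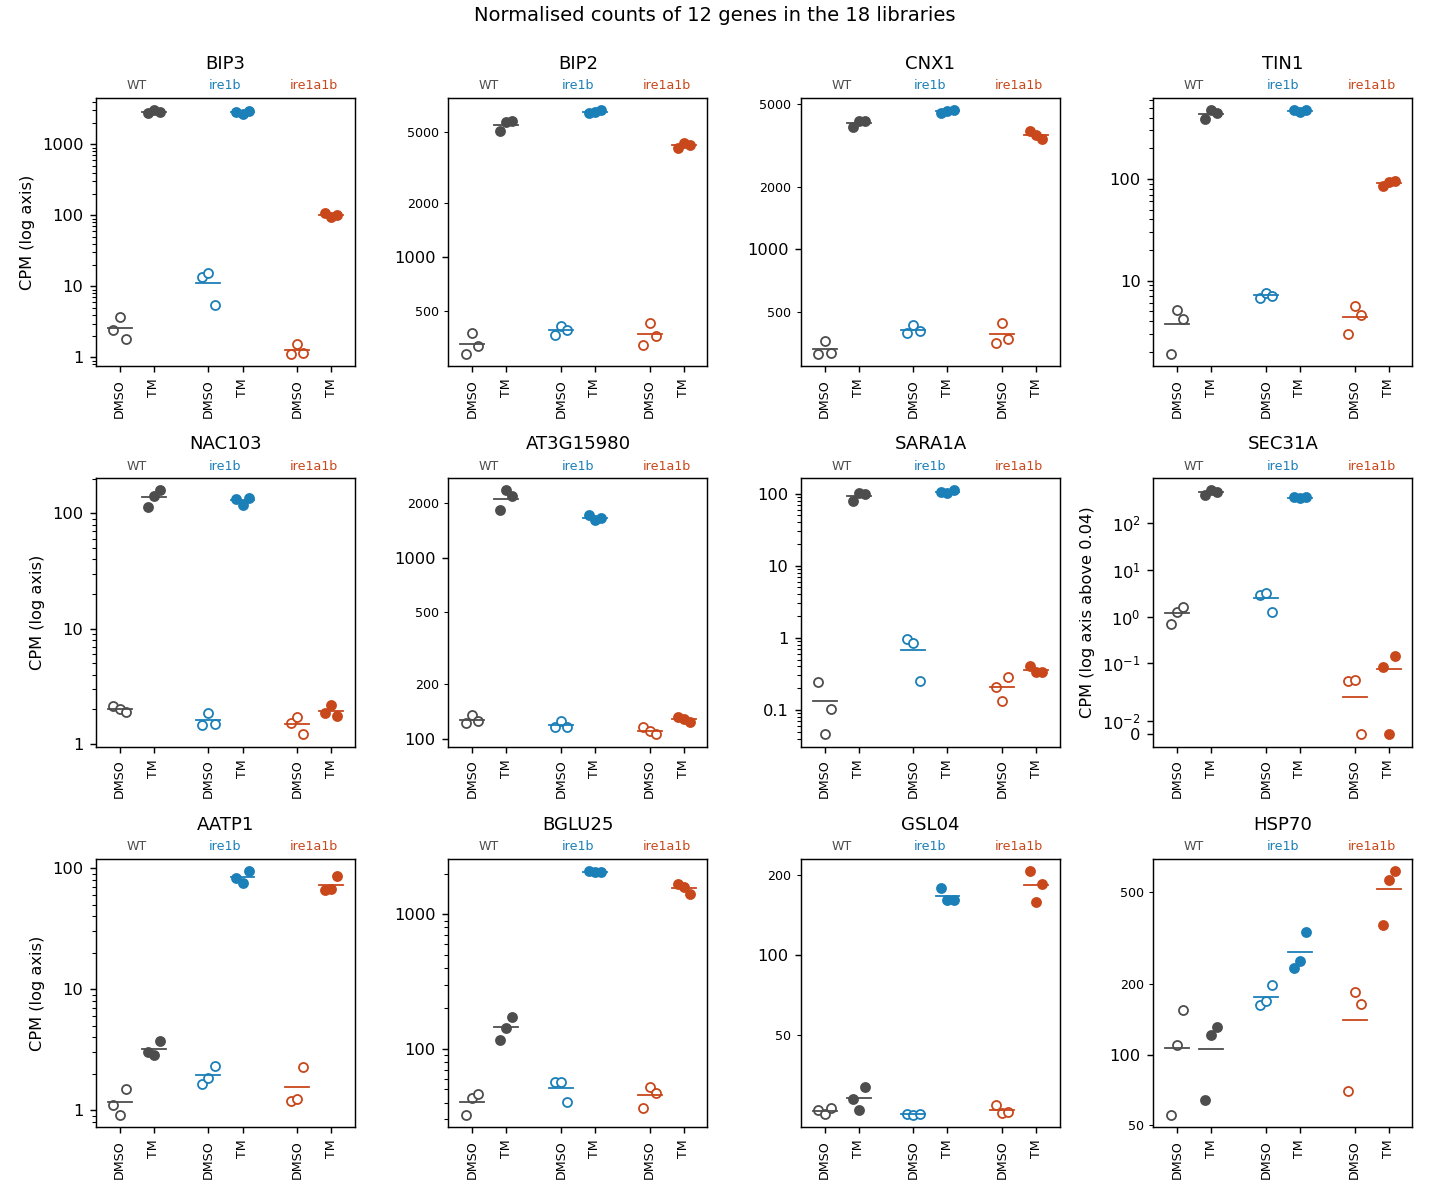
CPM of 12 genes in each of the 18 libraries, on log axes, for WT, ire1b and ire1a1b; open circles are DMSO, filled circles are TM and lines are means of 3 libraries. In ire1a1b the chaperone genes BIP3, BIP2 and CNX1 and the TM-induced gene TIN1 separated by treatment, NAC103, AT3G15980, SARA1A and SEC31A stayed near their DMSO level, and AATP1, BGLU25, GSL04 and HSP70 rose above the WT libraries.

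The promoters of responsive genes are printed here because the ERSE is the element through which bZIP28, bZIP17 and bZIP60 are known to act, and it was found before genes whose responses in ire1a1b differed widely in size. The ERSE was searched on both strands as CCAAT, 10 unspecified bases and CACG in the 300 bases before the annotated start of each of 20492 tested genes, and the core of the UPR element as TGACGTG. Sequences were read from the RefSeq genome TAIR10.1 and are given 5′ to 3′ in the direction of the gene, and capitals mark the matches; an ERSE on the opposite strand reads CGTG, 10 bases and ATTGG. The first 4 belonged to genes that rose past 4-fold in ire1a1b: BIP3 (chr1:2931851-2932150, minus strand, matches 174 to 156 and 96 to 78 bases before the start), the cochaperone P58IPK (chr5:749801-750100, plus strand, 119 to 101 and 59 to 41), the Sec61 beta subunit gene AT3G60540 (chr3:22375917-22376216, minus strand, 92 to 74 and 51 to 33) and the ERAD ubiquitin ligase HRD1B (chr1:24163670-24163969, minus strand, 34 to 16). The responses of BIP3 (difference -3.78), AT3G60540 (-1.03) and HRD1B (-0.58) were nevertheless called below WT, and that of P58IPK was not (-0.10, adjusted p = 0.839). The last 3 belonged to genes that rose by less than 2-fold or did not pass in ire1a1b: the ARF GTPase ARFA1D (chr1:26565866-26566165, minus strand, ERSE 117 to 99), the Yip1 family membrane protein AT2G36300 (chr2:15214341-15214640, minus strand, ERSE 170 to 152; chosen after its values were seen) and the COPII coat gene SEC31A (chr1:6488933-6489232, plus strand, UPR element core 111 to 105; its difference to WT did not pass).
BIP3: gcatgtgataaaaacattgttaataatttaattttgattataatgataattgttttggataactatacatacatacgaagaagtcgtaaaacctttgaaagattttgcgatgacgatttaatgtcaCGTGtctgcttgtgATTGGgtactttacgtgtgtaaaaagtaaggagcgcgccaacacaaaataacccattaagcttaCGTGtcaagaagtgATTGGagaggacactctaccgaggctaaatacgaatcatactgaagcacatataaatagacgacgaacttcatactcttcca
P58IPK: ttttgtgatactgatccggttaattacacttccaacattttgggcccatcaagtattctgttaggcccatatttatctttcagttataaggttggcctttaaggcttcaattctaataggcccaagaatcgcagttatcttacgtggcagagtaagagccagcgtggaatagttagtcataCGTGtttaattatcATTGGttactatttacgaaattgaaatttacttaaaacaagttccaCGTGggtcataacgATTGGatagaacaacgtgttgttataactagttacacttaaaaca
AT3G60540: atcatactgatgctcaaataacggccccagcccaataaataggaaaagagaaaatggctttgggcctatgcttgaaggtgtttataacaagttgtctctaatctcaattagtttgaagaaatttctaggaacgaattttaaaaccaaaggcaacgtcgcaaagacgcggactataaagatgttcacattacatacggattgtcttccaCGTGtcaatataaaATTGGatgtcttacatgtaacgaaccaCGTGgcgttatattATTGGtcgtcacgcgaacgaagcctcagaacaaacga
HRD1B: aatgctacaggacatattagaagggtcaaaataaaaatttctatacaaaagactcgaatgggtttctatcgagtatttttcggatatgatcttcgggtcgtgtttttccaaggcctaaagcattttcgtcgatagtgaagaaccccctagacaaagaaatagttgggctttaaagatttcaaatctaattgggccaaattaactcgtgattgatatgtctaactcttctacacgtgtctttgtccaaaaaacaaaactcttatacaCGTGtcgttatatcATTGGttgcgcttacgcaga
ARFA1D: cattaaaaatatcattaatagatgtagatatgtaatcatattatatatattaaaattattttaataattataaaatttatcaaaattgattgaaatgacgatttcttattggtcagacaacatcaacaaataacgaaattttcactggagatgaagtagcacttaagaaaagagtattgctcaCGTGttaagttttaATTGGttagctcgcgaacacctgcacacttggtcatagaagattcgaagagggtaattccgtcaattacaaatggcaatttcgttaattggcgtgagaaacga
AT2G36300: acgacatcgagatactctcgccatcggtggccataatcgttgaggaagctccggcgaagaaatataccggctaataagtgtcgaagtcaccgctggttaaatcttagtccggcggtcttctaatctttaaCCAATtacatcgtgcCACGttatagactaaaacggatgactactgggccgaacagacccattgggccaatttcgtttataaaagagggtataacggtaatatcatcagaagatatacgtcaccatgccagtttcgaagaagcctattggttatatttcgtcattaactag
SEC31A: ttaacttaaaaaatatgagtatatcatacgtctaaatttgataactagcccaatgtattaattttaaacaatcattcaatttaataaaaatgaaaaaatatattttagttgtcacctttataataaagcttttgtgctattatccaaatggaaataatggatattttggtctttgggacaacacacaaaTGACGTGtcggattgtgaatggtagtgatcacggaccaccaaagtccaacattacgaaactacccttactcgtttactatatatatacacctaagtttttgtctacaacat

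An ERSE was present in 187 of the 20492 promoters (0.913%). Of these 187 genes, 57 rose in ire1a1b (30.5%, against 8.27% of all tested genes) and 4 fell; in WT 83 rose and 3 fell. Among genes that rose past 4-fold in ire1a1b, 17 of 167 had an ERSE (10.2%). The share was 9.18% of the 501 genes that rose in both WT and ire1a1b. It was 7.47% of the 174 genes that rose in WT, were not called in ire1a1b and differed between them, and 0.962% of the 416 genes that rose in ire1a1b, were not called in WT and differed. The UPR element core was in 3.49% of all promoters and in 9.98%, 6.90% and 3.37% of these 3 sets. The G-box CACGTG, whose letters can overlap the UPR core, was in 7.87% of all promoters and in 15.4%, 21.3% and 7.45%. The motifs ERSE-II, UPRE-III and W-box were searched as well. Of the genes with UPRE-III 124 of 1590 rose in ire1a1b (7.80%), and of those with a W-box 247 of 2903 (8.51%), both near the share of all tested genes. Of the 16 genes with ERSE-II 0 rose in ire1a1b and 3 in WT. The windows before NAC103, SARA1A and AT3G15980 held neither an ERSE nor a UPR element core, which says only that these letters were not there.

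**Figure D2:**
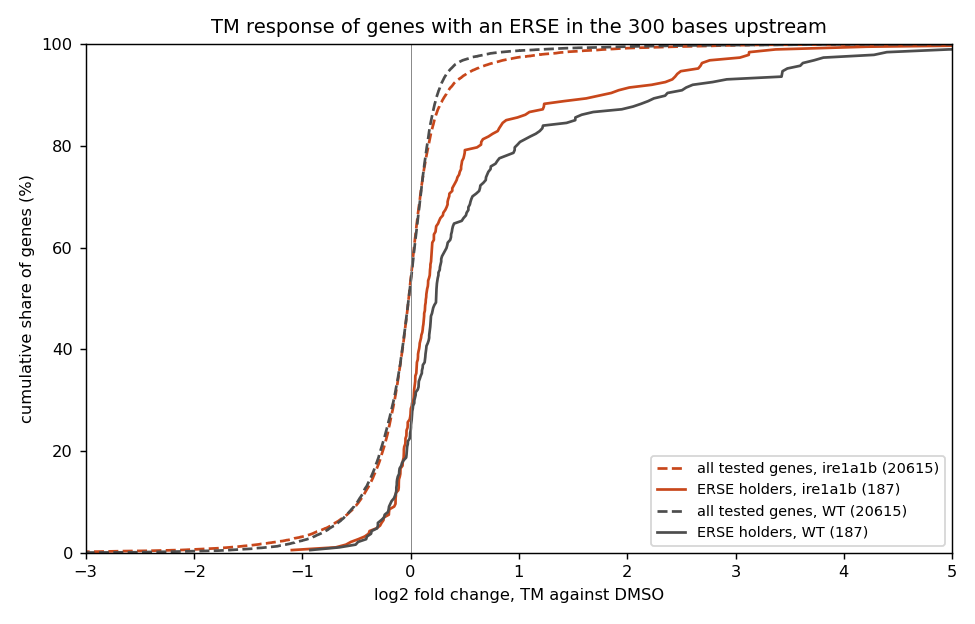
Cumulative share of genes (vertical axis, percent) by log2 fold change with TM (horizontal axis) for genes with an ERSE match and for all tested genes, in WT and ire1a1b. The 187 genes with a match lie to the right of all tested genes in both genotypes, and 57 of them rose in ire1a1b.

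Of the protein disulfide isomerase (PDI) and ERO1 genes, which form and shuffle disulfide bonds, 7 of 15 rose in ire1a1b and none fell. In WT 7 rose as well. The share of all tested genes that rose in ire1a1b was 8.27%. PDIL1-2 (log2 fold change 3.12 ± 0.10, 3.81 in WT), PDIL1-3 (2.197 ± 0.10, 2.05), PDIL2-1 (2.35 ± 0.08, 2.36) and PDIL1-1 (2.23 ± 0.083, 2.54) rose in both. Of these 4, PDIL1-2 rose less than in WT (difference -0.69 ± 0.13 SE, adjusted p = 0.00315), while the difference of PDIL1-1 (-0.32 ± 0.11, adjusted p = 0.129) passed with the replicate block (-0.32, adjusted p = 0.0227). PDIL2-3 (AT2G32920) was at 87.3, 85.2 and 88.9 CPM with DMSO and 287, 296 and 296 CPM with TM in ire1a1b. Its groups did not overlap, but its log2 fold change of 1.75 ± 0.06 was below that of WT (3.23; difference -1.48 ± 0.083 SE, adjusted p = 3.57e-08). ERO1 (AT1G72280), the oxidase that recharges PDI, rose by 2.53 ± 0.15 against 3.81 in WT (difference -1.29 ± 0.20 SE, adjusted p = 9.25e-04). The 8 other genes, including ERO2 (-0.10) and PDIL1-4 (0.011), did not pass.

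ERAD kept its response in part: 8 of 14 genes rose in ire1a1b (against 8.27% of all tested genes) and none fell. The response of 10 was below that of WT (against 2.43% of all tested genes). This count was 10 in each fit without 1 library. HRD1B (AT1G65040), a ubiquitin ligase of the ER membrane, was at 51.0, 59.7 and 54.0 CPM with DMSO and 498, 412 and 445 CPM with TM (log2 fold change 3.04 ± 0.087 SE, adjusted p = 2.47e-12; 3.62 in WT). OS9 (1.71 ± 0.065), a lectin that picks clients, HRD3A (1.62 ± 0.084), its partner, the derlins DER1 (1.51 ± 0.067) and DER2.1 (1.56 ± 0.11), and EBS7 (1.498 ± 0.058) rose. In WT their log2 fold changes were 2.70, 2.25, 2.55, 2.31 and 1.99. The ubiquitin-conjugating enzyme gene UBC32 (AT3G17000) was at 34.5, 30.9 and 33.0 CPM with DMSO and 56.9, 54.7 and 51.1 CPM with TM (log2 fold change 0.73 ± 0.066, 1.93 in WT). HRD3B, a second HRD3 gene, rose in WT (1.26) and was at 5.05, 3.28 and 3.70 CPM with DMSO and 4.53, 3.37 and 3.78 CPM with TM in ire1a1b, where the groups overlapped (difference -1.30 ± 0.24 SE, adjusted p = 0.00339). The segregase gene CDC48A (0.42 ± 0.10) rose without a called difference to WT (adjusted p = 0.355).

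At the entry to the ER, 6 of 8 genes of the Sec61 translocon rose in ire1a1b, with a median log2 fold change of 1.41 (1.76 in WT). Over all tested genes 8.27% rose in ire1a1b. The Sec61 beta gene AT3G60540 was at 2.32, 3.85 and 2.89 CPM with DMSO and 31.2, 29.2 and 33.3 CPM with TM, a 10.3-fold rise (log2 3.37 ± 0.17; 4.40 in WT). The difference to WT was called (-1.03 ± 0.23, adjusted p = 0.0137) but not without ire1a1b DMSO replicate 2 (-0.80, adjusted p = 0.0557). The Sec61 alpha genes AT1G29310 (2.01 ± 0.081) and AT2G34250 (1.45 ± 0.065) and the gamma gene AT5G50460 (1.97 ± 0.069) rose. None of the 12 genes of the signal recognition particle and its receptor, which act before the translocon, passed in ire1a1b. Their log2 fold changes ran from -0.13 to 0.27, and 3 passed with the replicate block. Of 7 signal peptidase genes 4 rose, among them AT3G05230 (1.34 ± 0.077), AT1G52600 (1.15 ± 0.067) and AT5G27430 (1.0998 ± 0.056).

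In the N-glycosylation steps that TM blocks, GPT (AT2G41490), the gene of the TM target enzyme, was at 19.8, 18.02 and 16.7 CPM with DMSO and 60.4, 53.9 and 53.2 CPM with TM in ire1a1b. It rose with no overlap (log2 fold change 1.62 ± 0.094 SE, adjusted p = 4.82e-09; 1.92 in WT). UGGT (1.42 ± 0.06), the folding sensor that reglucosylates glycoproteins, and the ER nucleotide sugar transporter genes UTR1 (3.36 ± 0.14) and UTR3 (3.12 ± 0.082) rose, and the trimming glucosidase gene GCS1 fell (-0.47 ± 0.10). Of 11 oligosaccharyltransferase genes 4 rose and 1 fell (none fell without the replicate 1 libraries). The catalytic subunit gene STT3A (1.05 ± 0.056, 0.90 in WT) and OST3 (1.08 ± 0.057, 0.70 in WT) rose, OST3 further than in WT (difference 0.38 ± 0.08 SE, adjusted p = 0.00862), and HAP6, the ribophorin II gene, rose less (0.31 ± 0.064, 0.93 in WT; difference adjusted p = 4.10e-04). Against ire1b, 1 oligosaccharyltransferase gene had a called response below and none above.

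Several genes of the coats of vesicles between ER and Golgi responded far less than in WT. SARA1A (AT1G09180, chr1:2965023-2965972), a SAR1 GTPase that starts COPII coats, had 13 counts over the 3 DMSO libraries of ire1a1b and 23 over the 3 TM libraries, against 9 and 5824 in WT. The outer COPII coat gene SEC31A (AT1G18830, chr1:6489233-6494634) had 2 and 5 counts in ire1a1b and 75 and 28466 in WT. Both had few counts in every ire1a1b library, and the log2 difference to WT was -8.53 ± 0.84 SE, adjusted p = 9.95e-06 for SARA1A and -7.42 ± 2.34 SE, adjusted p = 0.0892 for SEC31A (DESeq2 -7.28, adjusted p = 4.99e-07), whose ire1a1b fold change had an SE of 1.46 on so few counts. AT3G15980 (chr3:5411278-5418632), a beta' subunit of the COPI coat, was at 115, 109.9 and 106 CPM with DMSO and 132, 128 and 124 CPM with TM in ire1a1b. The groups did not overlap but the change did not pass (log2 fold change 0.21 ± 0.086 SE, adjusted p = 0.117). It passed when the replicate 1 libraries were left out (0.23, adjusted p = 0.0406) or when replicates were blocked separately in each genotype (0.21, adjusted p = 0.00653). The WT libraries with TM were at 1823, 2351 and 2179 CPM. This was the smallest p-value of the difference to WT in either direction (log2 difference -3.84 ± 0.13 SE, adjusted p = 1.11e-10).

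The alpha subunit gene AT1G62020 did not pass in ire1a1b (log2 fold change 0.16 ± 0.078, adjusted p = 0.211), at 126, 122 and 109 CPM with DMSO and 140.1, 137 and 121 CPM with TM with overlapping groups, against 568, 644 and 629.7 CPM in WT with TM (difference -2.09 ± 0.11 SE, adjusted p = 1.83e-08). ARFA1D (AT1G70490), of the ARF GTPases that recruit COPI, was at 189, 223 and 211 CPM with DMSO and 368, 379 and 365 CPM with TM in ire1a1b and at 2287, 2829.9 and 2573 CPM in WT with TM (difference -2.64 ± 0.14 SE, adjusted p = 1.83e-08). It still rose in ire1a1b (log2 fold change 0.83 ± 0.10), as did the COPII cargo adaptor gene SEC24B (0.42 ± 0.066, 1.86 in WT; difference -1.45 ± 0.094 SE, adjusted p = 1.90e-07). AT2G36300 rose by 0.39 ± 0.093 against 2.51 in WT (difference -2.12 ± 0.13 SE, adjusted p = 1.19e-07).

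Of 22 COPII genes 8 rose in ire1a1b and 15 in WT, and the response of 7 was below WT. Over all tested genes these shares were 8.27%, 6.13% and 2.43%. SAR1B (1.12 ± 0.076, 1.33 in WT) and SEC31B (0.74 ± 0.06, 0.72 in WT), a second SAR1 and a second SEC31 gene, rose in both genotypes, and their differences to WT were not called (-0.21 ± 0.11, adjusted p = 0.336, and 0.016 ± 0.085, adjusted p = 0.977). Of 16 COPI and KDEL receptor genes 4 rose in ire1a1b, none by more than 0.23 (log2), and 10 in WT; only AT3G15980 and AT1G62020 differed from WT. The 4 were 1 without DMSO replicate 3 or TM replicate 2 of ire1a1b and 2 without TM replicate 1. Of the 11 p24 cargo receptor genes, 8 rose in ire1a1b, 7 rose in WT and no difference to WT was called (2 with the replicate block, below WT); p24delta5 rose by 1.65 ± 0.087 (1.91 in WT) and p24beta2 by 1.23 ± 0.068 (1.52).

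**Figure D3:**
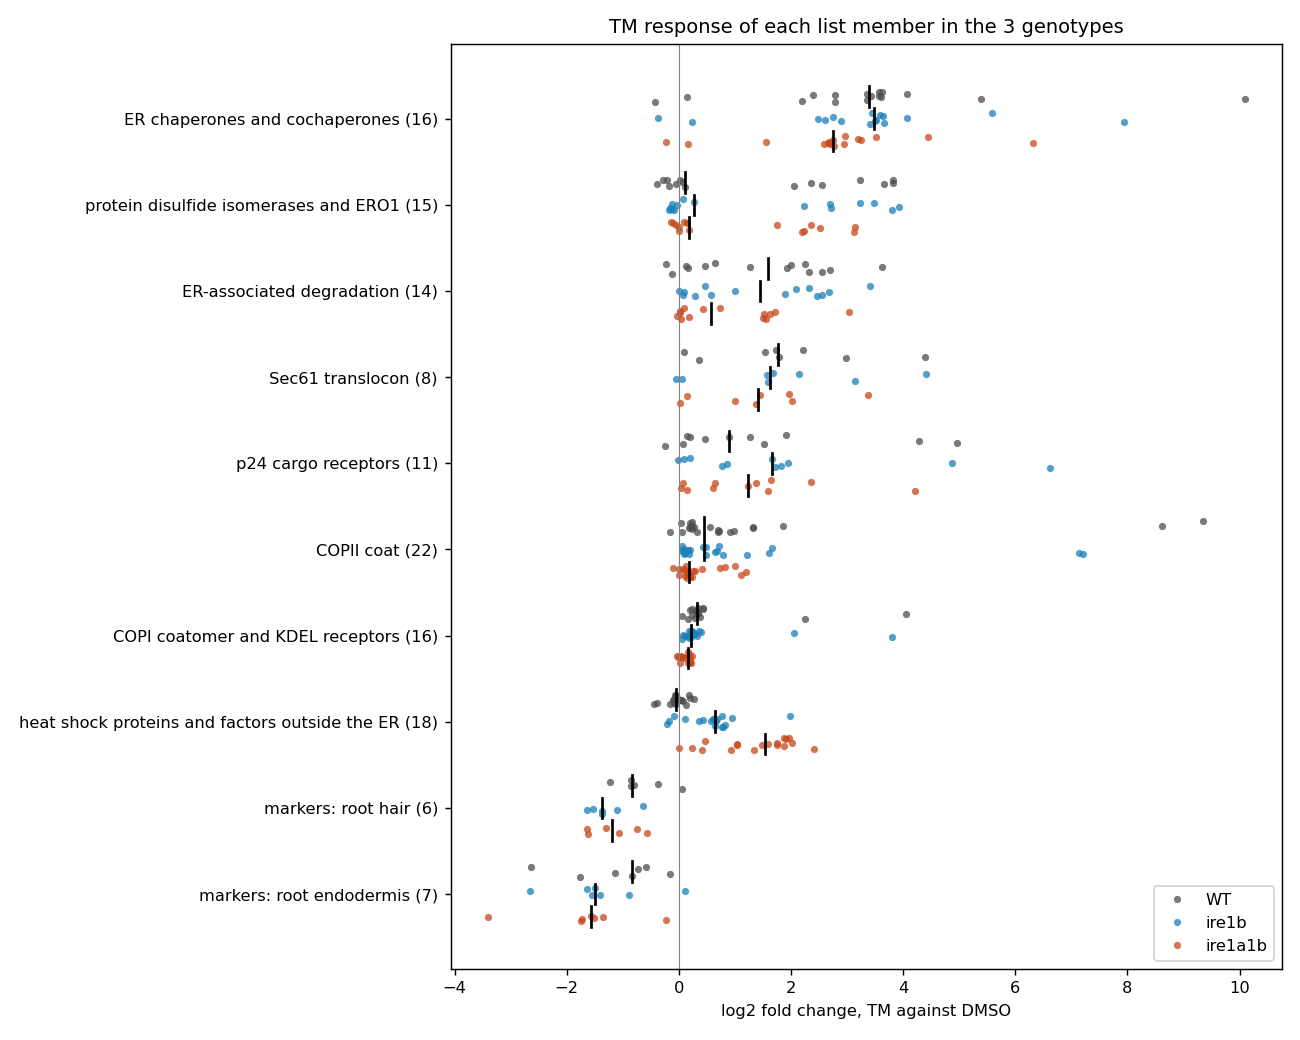
Log2 fold change with TM of every tested member of 10 gene lists in WT, ire1b and ire1a1b (points), with the median as a black tick. In ire1a1b 15 of 16 ER chaperone genes rose, no COPI gene rose by more than 0.23 (log2), and 15 of 18 heat shock genes rose.

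The response of ire1a1b was tested against that of WT, with which it shares no library. It differed in 1262 genes (6.12%), above WT in 762 (3.7%) and below in 500 (2.43%); with the replicate block it differed in 2341, 1434 above and 907 below. Of the 1264 genes that rose in WT, 502 rose in ire1a1b as well (39.7% of the WT list and 29.4% of the ire1a1b list). Of these 1264, 266 had a called difference towards no response, and 174 of the 266 were not called in ire1a1b at all. Of the 1189 genes that fell in WT, 452 fell in ire1a1b (38.0% and 33.3% of the lists), and 228 had a called difference towards no response. In the other direction, 554 genes that rose in ire1a1b did so more than in WT, 416 of them without a call in WT and 44 called lower there.

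Besides NAC103, AT3G15980, AT1G62020, ARFA1D and PDIL2-3, the smallest p-values below WT were of 3 genes. SVB (AT1G56580), a DUF538 protein gene with a role in trichome growth, was at 92.4, 103 and 94.6 CPM with DMSO and 99.2, 104 and 104 CPM with TM in ire1a1b and 673, 783 and 747 CPM in WT with TM. Its ire1a1b groups overlapped, the change did not pass (log2 fold change 0.088 ± 0.085, adjusted p = 0.601), and the difference to WT was -2.75 ± 0.12 SE, adjusted p = 2.67e-09. The RING finger gene AT4G32670 (14.1, 15.1 and 14.9 CPM with DMSO and 32.0, 28.3 and 34.4 CPM with TM; log2 fold change 1.103 ± 0.072, 3.54 in WT) rose less in ire1a1b (difference -2.44 ± 0.10 SE, adjusted p = 1.17e-09). The remorin gene AT2G41870 was at 8.89, 8.28 and 8.20 CPM with DMSO and 10.4, 9.42 and 10.4 CPM with TM, against 38.8, 42.1 and 37.7 CPM in WT with TM (difference -1.89 ± 0.10 SE, adjusted p = 1.83e-08).

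**Figure D4:**
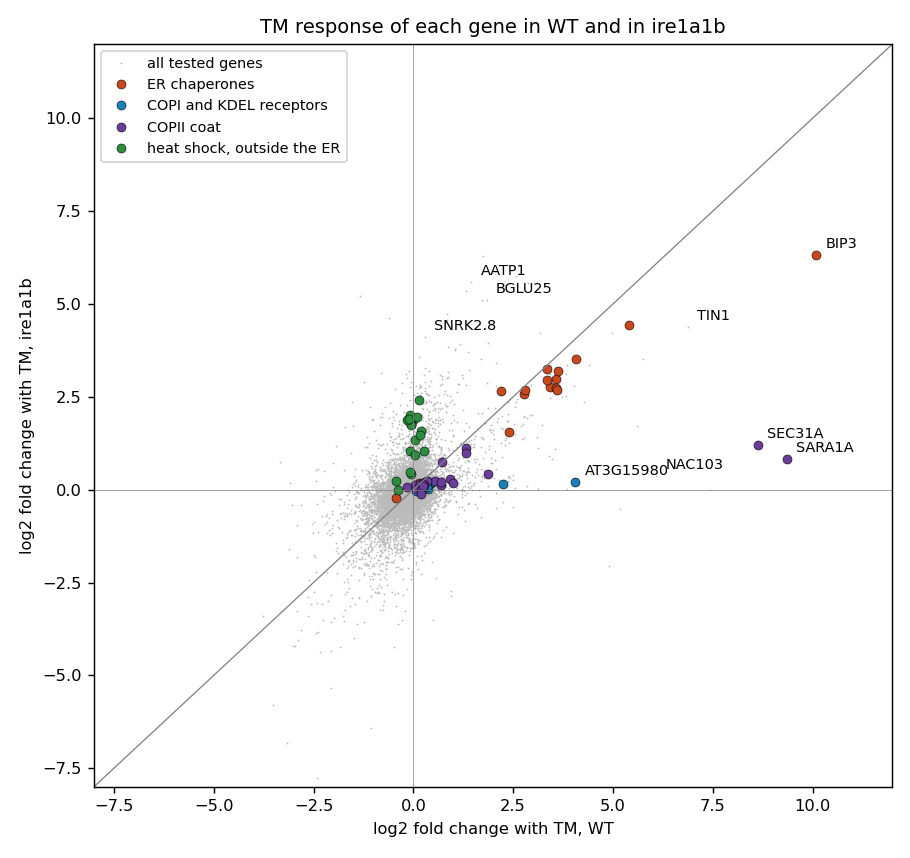
Log2 fold change with TM in WT (horizontal axis) and ire1a1b (vertical axis) for all tested genes (grey) and for members of 4 gene lists (coloured); the diagonal marks equal responses. ER chaperones lie near or below the diagonal, a few vesicle coat genes lie far to the right near 0 in ire1a1b, and heat shock genes lie above 0 in ire1a1b with WT values near 0.

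Several of the strongest rises in ire1a1b were small or absent in WT. AATP1 (AT5G40010, chr5:16020058-16021916), a mitochondrial AAA-ATPase gene known from salicylate and stress responses, was at 1.199, 1.24 and 2.25 CPM with DMSO and 65.7, 66.9 and 87.1 CPM with TM in ire1a1b, against 3.04, 2.85 and 3.72 CPM in WT with TM. All 3 TM libraries lay above every DMSO and every WT library (log2 fold change 5.59 ± 0.21 SE, adjusted p = 4.99e-11; difference to WT 4.13 ± 0.35 SE, adjusted p = 2.06e-06). BGLU25 (AT3G03640), a beta-glucosidase gene, was at 36.6, 51.9 and 47.0 CPM with DMSO and 1669, 1591 and 1414 CPM with TM (log2 fold change 5.11 ± 0.20, 1.84 in WT; difference 3.27 ± 0.25 SE, adjusted p = 7.78e-07). SNRK2.8 (AT1G78290), a stress-activated kinase gene, was at 10.7, 4.21 and 3.98 CPM with DMSO and 157, 83.1 and 87.3 CPM with TM (log2 fold change 4.10 ± 0.45, 0.29 in WT; difference 3.80 ± 0.62 SE, adjusted p = 0.00133). The groups of all 3 genes were without overlap in ire1a1b.

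Others of this kind were the ion channel gene CNGC19 (log2 fold change 4.36 ± 0.21, 1.81 in WT), the glutathione transferase gene GSTU22 (3.94 ± 0.38, 1.16), the lectin-like phloem protein gene PP2-B1 (3.69 ± 0.19, 1.37) and the calcium ATPase family gene AT3G22910 (3.18 ± 0.27, -0.10). Their differences to WT passed (adjusted p = 6.35e-05, 0.00294, 2.29e-05 and 4.40e-05). Their differences to ire1b were not called, where the log2 fold changes were 5.46 for AATP1, 5.33 for BGLU25, 4.40 for SNRK2.8 and 4.14 for CNGC19.

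Callose and glucan synthase-like genes, which make the callose of cell plates, plasmodesmata and wounded walls, gave 4 of the 8 smallest p-values above WT. GSL04 (AT3G14570, chr3:4892410-4902880) was at 27.4, 25.5 and 25.6 CPM with DMSO and 207, 157 and 185 CPM with TM in ire1a1b and at 26.2, 25.2 and 26.7 CPM with DMSO and 28.8, 26.3 and 31.9 CPM with TM in WT. The ire1a1b TM libraries stood above all of WT and all with DMSO (log2 fold change 2.804 ± 0.093 SE, adjusted p = 1.08e-11; difference to WT 2.65 ± 0.13 SE, adjusted p = 6.78e-09). In ire1b with TM the gene was at 178, 161 and 161 CPM, within the ire1a1b range (log2 fold change 2.72). GSL11 rose by 2.33 ± 0.11 (0.13 in WT), GSL8 by 1.45 ± 0.071 (0.0052 in WT) and GSL10 by 0.92 ± 0.056 (-0.22 in WT). Other genes with a GSL symbol or annotated as glucan synthase-like were looked up after these values were seen, so family members under other names would be missed. Of 10 such tested genes 7 rose in ire1a1b, the others being GSL09 (1.58 ± 0.30), GSL12 (1.18 ± 0.068) and GSL05 (0.95 ± 0.10), and none rose in WT. The 7 include the 4 genes that prompted the look-up. Over all tested genes 8.27% rose in ire1a1b. The same 7 rose in ire1b, and no difference to ire1b was called among the 10. GSL1 (0.083), GSL03 (-0.01) and CalS7 (0.043) did not pass.

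The other smallest p-values above WT were of AT1G48440 (log2 fold change 1.08 ± 0.059, -0.25 in WT), a BAP31-like gene, the pectin methylesterase gene AT1G53840 (1.34 ± 0.057, 0.22 in WT), the UDP-glucosyltransferase gene UGT71C2 (2.35 ± 0.09, 0.59 in WT) and GAMMA-VPE, a vacuolar protease gene. GAMMA-VPE (AT4G32940) was at 85.2, 95.2 and 89.6 CPM with DMSO and 105, 113 and 106 CPM with TM in ire1a1b and at 85.3, 84.6 and 92.1 CPM with DMSO and 41.0, 41.8 and 44.1 CPM with TM in WT. It fell with TM in WT and not in ire1a1b (difference 1.31 ± 0.087 SE, adjusted p = 2.37e-07).

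The series title names autophagy beside ER stress, a process in which cell contents are delivered to the vacuole. NBR1 (AT4G24690, chr4:12741032-12744670), a receptor for ubiquitinated cargo, was at 373, 509 and 516 CPM with DMSO and 1664, 1766 and 1738 CPM with TM in ire1a1b. The 3 TM libraries were close together and far above DMSO (log2 fold change 1.89 ± 0.15 SE, adjusted p = 3.08e-07), against 0.22 in WT (difference 1.66 ± 0.21 SE, adjusted p = 1.34e-04). In ire1b NBR1 rose by 1.78 ± 0.15, with no called difference to ire1a1b. ATG8D (AT2G05630), of the ubiquitin-like proteins that coat autophagosomes, was at 16.3, 16.8 and 16.9 CPM with DMSO and 58.1, 57.8 and 59.4 CPM with TM (log2 fold change 1.81 ± 0.078, 0.50 in WT; difference 1.31 ± 0.11 SE, adjusted p = 1.81e-06). It rose by 1.88 ± 0.078 in ire1b, and no gene of the list had a called difference between ire1b and ire1a1b. Of the 26 tested genes with autophagy names 3 rose (11.5%, near the 8.27% of all tested genes) and none fell in ire1a1b. With the replicate block 6 rose. Apart from NBR1 and ATG8D their log2 fold changes lay between -0.29 (ATG10) and 0.33 (ATG8H); ATG7 (listed as APG7, 0.087) and ATG5 (listed as APG5, 0.17), of the core conjugation machinery, did not pass.

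Heat shock genes of the cytosol and organelles rose in ire1a1b, with 15 of 18 called higher, none lower and a median log2 fold change of 1.53; in WT none was called and the median was -0.047. Their summed level was 285, 551 and 512 CPM with DMSO and 1017, 1497 and 1566 CPM with TM, against WT means of 366 and 363 CPM. Replicate 1 was the lowest of its group in both treatments, and the count was 15 without the replicate 1 libraries too. HSP70 (AT3G12580), the stress-induced cytosolic HSP70, was at 69.7, 186 and 165 CPM with DMSO and 361, 562 and 613 CPM with TM (log2 fold change 1.87 ± 0.40 SE, adjusted p = 0.00428). HSP90.1 (1.76 ± 0.38), the disaggregase gene HSP101 (1.33 ± 0.20), the small heat shock genes HSP17.6A (2.02 ± 0.40) and HSP17.4 (1.74 ± 0.41), and the factor gene HSFA2 (2.41 ± 0.41) rose, and HSP21 (0.24), HSP23.6-MITO (0.42) and HSFA7A (0.0028) did not pass.

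The difference to WT was called for 7 of the 18 heat shock genes, all above WT (3.7% of all tested genes). That count depended on single libraries: it was 15 without WT DMSO replicate 1 and 4 without any 1 of WT DMSO replicates 2 and 3, WT TM replicates 1 and 3, ire1a1b DMSO replicate 1 and ire1a1b TM replicates 2 and 3. With the replicate block it was 15, and without the replicate 1 libraries 16. In ire1b 3 of the 18 rose, with a median of 0.64, and no gene of the list had a called difference between ire1b and ire1a1b. The promoters of HSFA2 (chr2:11135324-11135623, plus strand) and HSP17.4 (chr3:16984868-16985167, minus strand) are shown because both hold the heat shock element, searched on both strands as GAA, 2 unspecified bases, TTC, 2 unspecified bases and GAA, 88 to 76 bases before the start of HSFA2 and 99 to 87 and 18 to 6 bases before that of HSP17.4 (RefSeq, TAIR10.1; 5′ to 3′, matches in capitals).
HSFA2: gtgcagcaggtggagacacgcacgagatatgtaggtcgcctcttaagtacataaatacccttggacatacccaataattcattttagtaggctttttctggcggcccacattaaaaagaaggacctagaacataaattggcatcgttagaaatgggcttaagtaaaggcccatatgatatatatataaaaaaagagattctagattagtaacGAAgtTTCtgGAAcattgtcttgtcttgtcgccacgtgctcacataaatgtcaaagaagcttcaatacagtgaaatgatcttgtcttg
HSP17.4: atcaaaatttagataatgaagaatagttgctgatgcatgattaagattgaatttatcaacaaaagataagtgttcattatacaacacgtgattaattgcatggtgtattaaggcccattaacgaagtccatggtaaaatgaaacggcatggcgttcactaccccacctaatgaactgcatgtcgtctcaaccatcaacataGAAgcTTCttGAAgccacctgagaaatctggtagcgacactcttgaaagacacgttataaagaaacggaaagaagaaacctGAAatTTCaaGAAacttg

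The element was in 0.508% of all 20492 promoters and in 6 of the 18 of the heat shock list (33.3%). Of the 104 genes that held it, which include those 6, 15 rose in ire1a1b (14.4%, against 8.27% of all tested genes). The 15 hold genes already counted in the heat shock list, such as HSFA2 and HSP17.4. This share is therefore not separate from the rise of that list. In WT 12 of the 104 rose, where 6.13% of all tested genes did and no gene of the heat shock list was called. Of the 18 heat shock promoters none held an ERSE or a UPR element core.

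**Figure D5:**
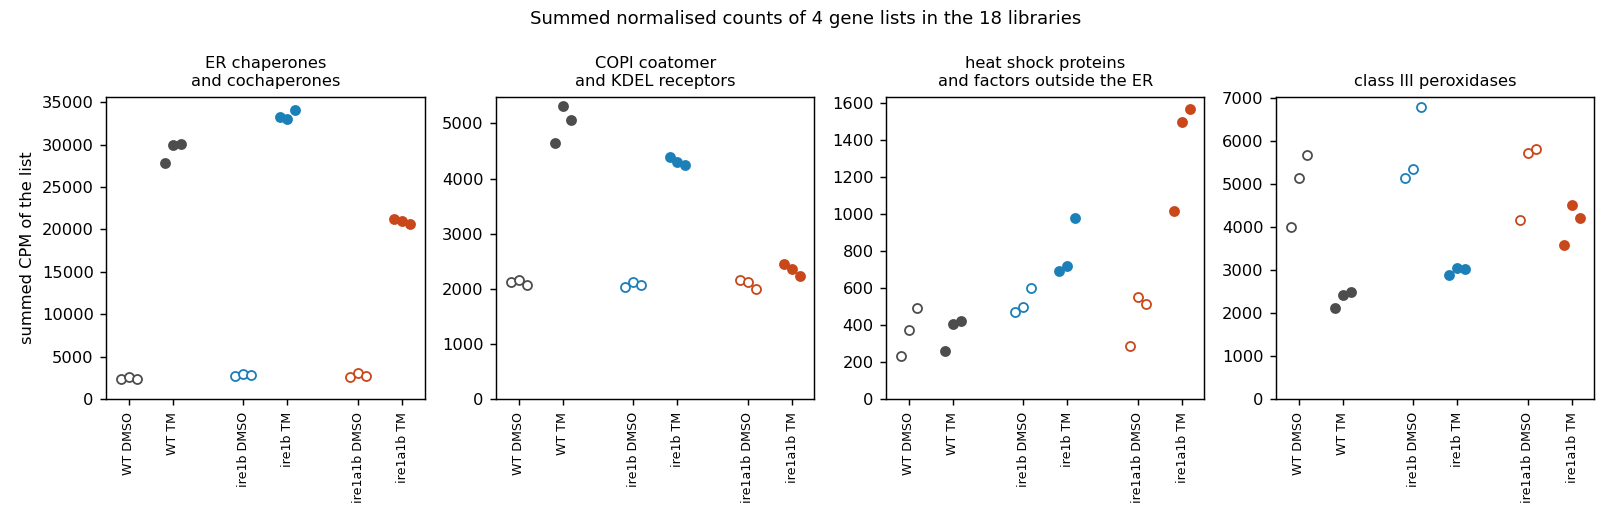
Summed CPM of 4 gene lists in each of the 18 libraries, by genotype; open circles are DMSO and filled circles TM. In ire1a1b the ER chaperones went from 2587 to 3052 CPM with DMSO to 20593 to 21282 CPM with TM, the COPI list went from 1992 to 2153 CPM with DMSO to 2238 to 2445 CPM with TM, and the heat shock list lay between 1017 and 1566 CPM with TM.

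Among transcription factors, the 8 largest rises in ire1a1b included 1 that was called in WT, and 5 of the 8 had a called difference to WT. All 8 rose in ire1b, and none had a called difference to ire1b. MAF4 (AT5G65070), a MADS-box repressor of flowering, was at 2.85, 3.01 and 2.66 CPM with DMSO and 23.8, 14.8 and 18.5 CPM with TM (log2 fold change 2.74 ± 0.18 SE, adjusted p = 1.67e-08; 0.14 in WT, difference 2.604 ± 0.26 SE, adjusted p = 1.09e-05). DREB2A (1.96 ± 0.30, 0.081 in WT) and DREB2C (2.56 ± 0.52, 0.37), of the drought and heat response, HSFA1E (2.55 ± 0.15, 0.64), a class A1 heat shock factor gene, and WRKY50 (2.398 ± 0.16, 0.32) rose. So did the zinc finger genes ZAT7 (2.78 ± 0.52) and AT3G46080 (2.596 ± 0.57). Of 63 NAC genes 15 rose in ire1a1b, with NAC085 (3.16 ± 0.72, 0.86 in WT), NAC094 (2.72 ± 0.43, -0.47) and NAC001 (1.56 ± 0.22, 0.17) among the rises. In ire1b 15 NAC genes rose too. Against ire1b, 3 NAC genes had a called response below and none above. Over all tested genes 8.27% rose in ire1a1b. Of 59 WRKY genes 6 rose and 6 fell (10.2% each way, near the 8.27% and 6.59% of all tested genes), and 10 fell without the replicate 1 libraries. WRKY30 was the largest fall among the factors (-2.12 ± 0.39, -1.32 in WT), followed by WRKY60 (-1.40 ± 0.22) and the GRAS factor gene AT5G19970 (-1.23 ± 0.18). MYB34 (-1.03 ± 0.15, 0.20 in WT), a regulator of indole glucosinolate synthesis, fell in ire1a1b and differed from WT (adjusted p = 0.00141).

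Genes of the root and the cell wall were among those that fell. Of 6 root hair markers 5 fell in ire1a1b, with a median log2 fold change of -1.19 (-0.83 in WT and -1.36 in ire1b). Of 7 markers of the root endodermis 5 fell, with a median of -1.57 (-0.83 in WT and -1.50 in ire1b). The share of all tested genes that fell was 6.59%. In WT 4 of each list fell, and in ire1b 6 and 5. The difference to WT was called for 1 root hair marker, below WT, and for no endodermis marker. No marker of either list had a called difference to ire1b. The root hair markers summed to 79.3 to 88.4 CPM with DMSO and 32.0 to 38.2 CPM with TM in ire1a1b, and to 70.0 to 79.7 and 35.9 to 46.5 CPM in WT. The endodermis markers summed to 43.5 to 45.3 and 10.9 to 19.0 CPM in ire1a1b, and to 42.6 to 44.3 and 21.9 to 29.7 CPM in WT. CASP5 and ESB1 lay under 1 CPM in every ire1a1b library. None of 8 green shoot markers, which summed to 5451 to 8097 CPM across the ire1a1b libraries, and none of 4 markers of dividing cells passed. The part of root cell number in the falls of other genes was not tested. CASP4 (AT5G06200), a Casparian strip scaffold gene, was at 2.52, 2.88 and 2.95 CPM with DMSO and 0.0408, 0.449 and 0.340 CPM with TM (log2 fold change -3.40 ± 0.36). In libraries of whole seedlings, fewer cells of a type and less RNA per cell cannot be told apart, and this holds for each fall described here. The root hair genes COBL9 (-1.62 ± 0.17), EXPA7 (-1.65 ± 0.15) and PRP3 (-1.31 ± 0.11) and the endodermal genes CASP1 (-1.36 ± 0.20) and CASP2 (-1.74 ± 0.22) fell together with them.

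Of the 20 largest falls 17 also fell in WT and all 20 in ire1b, and 12 fell further than in WT. The pectin methylesterase inhibitor family gene AT5G04960 was at 16.4, 17.8 and 18.1 CPM with DMSO and 1.67, 2.13 and 1.16 CPM with TM, with no overlap (log2 fold change -3.40 ± 0.16 SE, adjusted p = 4.22e-10; -1.76 in WT, difference -1.64 ± 0.21 SE, adjusted p = 1.42e-04). TIP4;1 (-2.26 ± 0.12, -0.97 in WT), a tonoplast aquaporin gene, NSP4 (-2.14 ± 0.15, -0.68), which acts in glucosinolate breakdown, and the ferric reductase gene FRO4 (-2.27 ± 0.22, -0.69) fell further in ire1a1b than in WT. AT4G15390, an acyltransferase family gene (-2.15 ± 0.18, 0.13 in WT; difference -2.28 ± 0.24 SE, adjusted p = 2.45e-05), and XTH31 (-2.12 ± 0.26, -0.13 in WT; difference -1.99 ± 0.36 SE, adjusted p = 0.00298) were, with AT5G44575, the 3 of the 20 largest falls without a call in WT. The potassium channel gene SKOR of the root stele fell as well (-2.25 ± 0.31).

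Of 27 xyloglucan endotransglucosylase/hydrolases, which remodel the wall, 6 fell in ire1a1b and 2 rose (4 with the replicate block); XTH26 (-4.21 ± 0.18) and XTH13 (-3.27 ± 0.23) led the falls. Of 19 expansins, which loosen it, 8 fell. Over all tested genes 6.59% fell in ire1a1b and 8.27% rose. Of 31 aquaporins 7 fell and none rose (1 with the replicate block). Of the arabinogalactan and fasciclin-like genes, 43 in number, 5 rose and 8 fell, 9 and 12 with the replicate block, with AGP30 (-4.22 ± 0.31) and AGP3 (-1.97 ± 0.12) among the falls and FLA12 (2.04 ± 0.18, -0.15 in WT) among the rises. None of the 43 had a called difference to ire1b.

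Class III peroxidases, secreted enzymes of wall cross-linking, fell in part: 23 of 65 fell and 3 rose, with a median log2 fold change of -0.33. In WT 37 fell and none rose, with a median of -0.85. The shares of all tested genes that fell were 6.59% in ire1a1b and 5.77% in WT. The response of 13 was above WT and that of 3 below; the latter count was 5 without WT DMSO replicate 3 or WT TM replicate 2. AT4G36430 was at 24.2, 27.6 and 28.8 CPM with DMSO and 106, 110.3 and 163 CPM with TM in ire1a1b and at 21.0, 18.6 and 23.1 CPM with DMSO and 8.15, 11.02 and 10.4 CPM with TM in WT. It rose in ire1a1b (log2 fold change 2.24 ± 0.17) and had a log2 fold change of -1.08 in WT (difference 3.32 ± 0.25 SE, adjusted p = 7.78e-07). AT5G06730 (1.58 ± 0.19, -0.997 in WT) and AT3G21770 (0.97 ± 0.10, -0.37 in WT) rose as well, and AT2G39040 (-4.36 ± 0.24, -2.35 in WT) fell further.

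Of the 10 largest CPM losses in ire1a1b, 5 were also called lower in WT and all 10 in ire1b. PYK10 (AT3G09260), the main ER body beta-glucosidase, was at 3039, 3925 and 3594 CPM with DMSO and 1906, 2665 and 1907 CPM with TM. The groups did not overlap (log2 fold change -0.70 ± 0.17 SE, adjusted p = 0.0104; -1.71 in WT), and the call was lost without TM replicate 3 (-0.62, adjusted p = 0.053). NAI2 (-0.87 ± 0.15), which shapes ER bodies, the jacalin lectin gene JAL34 (-1.08 ± 0.20) and NSP1 (-0.92 ± 0.17) fell. NAI1, the factor gene that controls them, fell too (-1.05 ± 0.16, -0.23 in WT).

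Detoxification families moved in both directions. Of 36 tau and phi glutathione transferases 6 rose (16.7%, against 8.27% of all tested genes) and 7 fell (19.4%, against 6.59%) in ire1a1b. Without the replicate 1 libraries 11 fell. GSTU8 (2.18 ± 0.22, 0.34 in WT) and GSTU18 (1.75 ± 0.13, 0.39) were among the rises beside GSTU22, and GSTU14 (-4.24 ± 0.41, -0.47) was the largest fall. Of 52 UDP-glycosyltransferases 4 rose (7.69%, near the share of all tested genes) and 10 fell (19.2%). The rises were 8 with the replicate block and 2 without TM replicate 3. UGT72E2 (-1.90 ± 0.18, -0.29 in WT), of monolignol glucosylation, and UGT71C1 (-1.04 ± 0.13, 0.14) fell in ire1a1b and differed from WT. Of 15 abscisic acid genes 2 rose (13.3%, against 8.27% of all tested genes; RD29B, 1.84 ± 0.34, and SNRK2.8). Of 15 salicylate and camalexin genes 3 rose (20%) and none fell, or 2 fell with the replicate block or without the replicate 1 libraries; the rises included PAD4 (0.87 ± 0.11, -0.092 in WT). Of 10 genes of the mitochondrial stress response AATP1 alone rose, with the marker gene AOX1A at -0.044. No UDP-glycosyltransferase and no salicylate or camalexin gene had a called difference to ire1b. Among the glutathione transferases 1 had, below ire1b.

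Against ire1b, with which it shares no library either, the response of ire1a1b differed in 160 genes (0.776%), above in 38 (0.184%) and below in 122 (0.592%); with the replicate block it differed in 316, of which 133 were above. Of the 1705 genes that rose in ire1a1b 1307 rose in ire1b too (76.7%, and 58.04% of the 2252 that rose in ire1b), and of the 1359 that fell 1108 fell in ire1b (81.5%, and 46.4% of 2387). Below ire1b were again NAC103, AT3G15980 (difference -3.59 ± 0.12 SE, adjusted p = 2.88e-10), AT4G32670 (-2.10 ± 0.10), SVB (-2.47 ± 0.12) and AT2G41870 (-1.97 ± 0.10). Of the ER chaperones 5 of 16 and of the ERAD genes 7 of 14 responded less than in ire1b, and no member of either list responded more. BIP3 differed by -1.63 ± 0.43 without passing (adjusted p = 0.146; 0.00842 with DESeq2), and passed without ire1b DMSO replicate 3 (-1.31, adjusted p = 0.0471).

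Above ire1b were GAMMA-VPE (difference 0.68 ± 0.087 SE, adjusted p = 4.24e-04), SGT1A, AT1G70160, AT4G24340 and ZIP3. SGT1A (AT4G23570), annotated as a phosphatase-like protein gene, was at 54.6, 56.4 and 50.9 CPM with DMSO and 102, 90.8 and 93.1 CPM with TM in ire1a1b, a rise of 0.82 ± 0.066, against 0.11 in ire1b (difference 0.71 ± 0.093 SE, adjusted p = 5.43e-04). The zinc transporter gene ZIP3 (AT2G32270) was at 14.1, 17.7 and 16.8 CPM with DMSO and 7.43, 6.17 and 5.58 CPM with TM in ire1a1b. It fell in ire1a1b (log2 fold change -1.34 ± 0.15) and fell further in ire1b (-2.79; difference 1.45 ± 0.24 SE, adjusted p = 0.00478).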

How the data were processed

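Raw gene counts were deposited; per the submitters' processing notes the authors used STAR 2.4.0, HTSeq 0.6.0 and TAIR10 (DESeq2 is named there without a version), on paired-end reads of 250 nt per the labels. Counting mode, strand setting and annotation release are not given in the sources used here; overlapping, antisense and near-identical genes are therefore uncertain. HTSeq summary entries (5.71% to 6.22% of all counts) were left out. Replicate numbers came from the sample titles, with which the replicate tag conflicts; since separate cultures are not stated, the p-values reflect only the scatter of these samples, possibly technical. Between replicates, chi-square per degree of freedom was 2.73 to 57.6, so no libraries were duplicates within counting noise.

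Counts were filtered (filterByExpr, 6 groups), scaled by TMM and fitted over all 18 libraries by robust quasi-likelihood in edgeR 4.0.16 (R 4.3.3; limma 3.58.1; Python 3.11.15 for sequences and figures). Comparisons were TM against DMSO in ire1a1b and the differences of that response to those of WT and ire1b; the responses of WT and ire1b and the DMSO contrast came from the same fit. Benjamini-Hochberg adjustment ran over the 20615 genes, with calls at adjusted p under 0.05; all adjusted p-values are from this fit unless another setting is named. Log2 fold changes stand with their SE and CPM is TMM-scaled, n = 3 libraries per group. Totals of 16.35 to 24.85 M counts set the counting precision. The fit was tested on simulated data.

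Identifiers matched 26719 of 27416 loci of the RefSeq annotation TAIR10.1, whose chromosomes are those of TAIR10. Libraries of equal number deviated together (r of gene residuals between TM and DMSO 0.719, 0.425 and 0.512 in ire1a1b, 0.691, 0.506 and 0.498 in WT, 0.249, 0.152 and 0.319 in ire1b). All r were above the 0.1 set beforehand for pairing, but libraries of unequal number were not compared. In WT and ire1a1b the shift of replicate 1 in both treatments also moves the residuals of the other replicates. Their r therefore cannot show whether they were pairs. The replicate block is given as an alternative where it changes a call or moves a count by over 1.5 times. This block fits the same replicate effect in WT, ire1b and ire1a1b. Replicate 1 of ire1b (-11.8 with DMSO and -1.46 with TM on the second component) did not share the shift of WT and ire1a1b, which such a block does not allow for. Total counts with a block within each genotype are in the last section.

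Named genes were IRE1A, IRE1B, BZIP60, BIP3 and NAC103; the 20 largest log2 fold changes per direction among called genes whose mean log2 CPM reached 2 and whose groups did not overlap; the 10 largest CPM gains and losses; the 8 largest rises and falls of transcription factors; the 8 smallest p-values per direction against WT and 5 against ire1b; and list members. Members, gene lists and motifs were chosen with earlier results of these data known. Alternatives were RLE scaling, DESeq2 1.42.0, no filter, at least 1 CPM in 3 libraries, a fit to the groups of a contrast, a replicate block over all libraries or within each genotype, and leaving out each library or the replicate 1 libraries of WT and ire1a1b.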

Additional observations from a re-analysis of the deposited data

Results flagged for a closer look

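The responses listed here differed between genotypes by a test of the difference itself, and are those of BIP3 and NAC103, which were named in any case, and of the genes with the smallest p-values in each direction. Each value is the log2 response in ire1a1b minus that of the other genotype.

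Against WT, the difference was -3.78 for BIP3, -5.73 for NAC103, -3.84 for AT3G15980, -2.44 for AT4G32670, -2.75 for SVB, -1.89 for AT2G41870, -2.09 for AT1G62020, -2.64 for ARFA1D and -1.48 for PDIL2-3. It was 2.65 for GSL04, 2.20 for GSL11, 1.44 for GSL8, 1.14 for GSL10, 1.33 for AT1G48440, 1.31 for GAMMA-VPE, 1.76 for UGT71C2 and 1.12 for AT1G53840.

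Against ire1b, the difference was -5.96 for NAC103, -3.59 for AT3G15980, -2.10 for AT4G32670, -2.47 for SVB and -1.97 for AT2G41870. It was 0.68 for GAMMA-VPE, 0.71 for SGT1A, 0.59 for AT1G70160, 0.97 for AT4G24340 and 1.45 for ZIP3. The vesicle coat gene AT3G15980, the RING finger gene AT4G32670, the DUF538 gene SVB, the remorin gene AT2G41870 and NAC103 were thus low in ire1a1b against both other genotypes.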

How the results depend on the processing

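No named or list gene that was called in the main fit or in an alternative reversed direction between the 2 fits. Called genes of the TM response in ire1a1b numbered 3064 in all, 1705 higher and 1359 lower; they were 4844, 2569 and 2275 with the replicate block, 6337, 3247 and 3090 with the block within each genotype, 1567, 880 and 687 in a fit to the groups of the contrast, and 2327 to 3025 with 1 library left out. The difference to WT (1262 in all, 762 above and 500 below) gave 2341, 1434 and 907 with the replicate block, 3486, 2120 and 1366 with the block within genotypes, 1152 above when the 4 replicate 1 libraries of WT and ire1a1b were dropped, and 981 to 1351 in all with 1 library left out. The difference to ire1b (160 in all, 38 above and 122 below) gave 316 in all and 133 above with the replicate block, 622, 356 and 266 with the block within genotypes, 254 in all and 82 above without the replicate 1 libraries, 271 in all and 99 above with DESeq2, and 114 to 142 in all and 18 to 33 above with 1 library left out. Other settings stayed within 1.5 times: the TM response numbered 3073 with RLE scaling, 2904 with no filter, 2965 with at least 1 CPM, 3325 with DESeq2 and 3698 without the replicate 1 libraries, 2562 of them shared with the 3064. Of the values of named and list genes, the replicate block turned none of the calls off and 146 on, and the fit to the groups of a contrast turned 90 off. Depth limits SARA1A and SEC31A in ire1a1b, at 2 to 23 counts per group, so that their fitted log2 differences are imprecise; the causes of these changes were not tested.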
